A study of Homo sapiens with 14 samples.

Results

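The genes described here are 10 chaperones and folding enzymes of the endoplasmic reticulum: CALR, CANX, PDIA3, PDIA4, PDIA6, P4HB, HSPA5, HYOU1, HSP90B1 and CALU. They were taken by gene name from a deposited table of N6-methyladenosine (m6A) levels, in which they hold 224 of 407343 listed adenosines and make up 10 of 13756 named genes. They were selected on measured values, namely the share of their m6A that remained in CAOV3 cells after the compound STM3675, so every CAOV3 comparison of STM3675 with DMSO is given for them as a description, and counts of calls in it support nothing about them. Differences among the other 5 cell lines did not enter that selection and were tested.

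The libraries came from CAOV3 (ovarian carcinoma) exposed to 1 uM STM3675 for 24 h, and from CAOV3, COV644, EFO21 and SKOV3 (ovarian carcinoma), A549 (lung carcinoma) and OE21 (oesophageal carcinoma) kept in the solvent DMSO for 24 h, with 2 libraries in each of the 7 groups. METTL3, whose inhibition is the subject of the series, is the enzyme that places most m6A on messenger RNA. GLORI was used, a chemical method in which unmethylated adenosines of polyadenylated RNA are deaminated and read as G while m6A is still read as A. Levels of m6A are given as the percentage of A among the A and G reads of a site, as mean ± SD over the 2 libraries of a group or as both values.

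A site entered the deposited table only if at least 1 DMSO library had 20 or more reads and a level of 25% or more there. Low levels in other libraries therefore belong to sites chosen for a high DMSO value. Total A and G reads at the listed sites ran from 14047302 to 28663588 per library. Sites outside DRACH, the sequence that METTL3 methylates (D is A, G or T; R is A or G; H is A, C or T), served as a measure of unconverted reads. This measure is rough, since these sites, too, were listed for a high DMSO value, and some lost level with STM3675. P4HB chr17:81843755 (GTACT) averaged 78.4% over 5 DMSO lines and kept 0.210 of its DMSO level with STM3675 in CAOV3. The median level of sites outside DRACH was 8.89% and 8.85% in the STM3675 libraries, against 10.8% and 11.1% in the CAOV3 DMSO libraries. In the other lines it was 3.33% to 4.14% in COV644 and OE21 and 10.3% to 15.8% in A549, EFO21 and SKOV3. The lines' identities were checked by reads over marker genes, scaled to the library's total (RPM). The squamous keratin KRT5 had 3886 RPM in OE21 and at most 50.5 RPM in any other group, the ovarian marker PAX8 had 70.3 RPM or more in CAOV3, EFO21 and SKOV3 but 20.1 RPM in COV644 and 21.8 RPM in OE21, and the ovarian marker MSLN was highest in COV644, at 1282 RPM. The lung marker NKX2-1 went against the labels, with 0.113 RPM in A549, 17.8 RPM in COV644 and 11.6 RPM in OE21, and the ovarian marker WT1 was highest in A549, at 8.63 RPM.

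Newly made secreted and membrane proteins are folded in the endoplasmic reticulum by several chaperone systems. HSPA5 (BiP) is the HSP70 of this compartment, HYOU1 acts as its nucleotide exchange factor, and HSP90B1 (GRP94) is its HSP90. CALR and CANX are lectins that hold glycoproteins carrying a trimmed sugar and present them to PDIA3, which makes and reshuffles their disulfide bonds. P4HB, PDIA4 and PDIA6 are further protein disulfide isomerases, P4HB being also a subunit of collagen prolyl hydroxylase, and CALU is a calcium-binding protein of the secretory pathway. When unfolded proteins accumulate, the unfolded protein response raises transcription of many of these genes, HSPA5 above all. In messenger RNA, m6A lies mostly in long internal exons and in the last exon near the stop codon.

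Most DRACH sites of the 10 genes lay in last exons, as they did in genes at large. Of their 75 listed DRACH sites 54 lay in a last exon, and over all genes this held for 87759 of 133847 DRACH sites (65.6%). Averaged over the 5 DMSO lines other than CAOV3, 16 DRACH sites reached 50% or more, and all 16 were in last exons. They belonged to 7 of the 10 genes: HSPA5 had 4, P4HB had 3, and CALR, PDIA4, PDIA6 and CALU had 2 each, while PDIA3 had 1. The highest DRACH sites of HSP90B1 and CANX, in exon 5 and in the last exon, averaged 44.2% and 37.7% over the 5 lines. HYOU1 had 43 listed sites, the most of the 10 genes, but only 5 in DRACH, and the highest of these with 50 or more reads in every library, chr11:119054558 (TGACA), averaged 11.4% over the 5 lines. A shallower one, chr11:119049090 (GAACC), averaged 16.8%, but each SKOV3 library had 1 read there, at 0% and 100%.

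**Figure D1:**
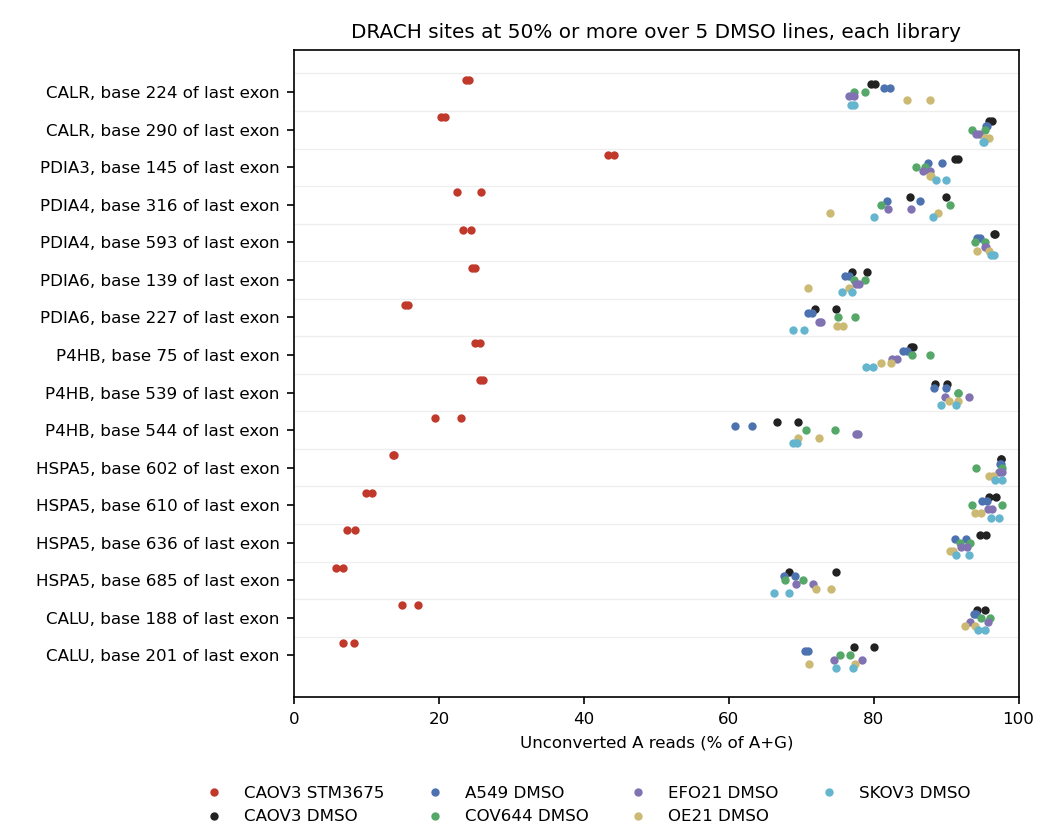
Levels (percent A reads) at the 16 DRACH sites of the 10 genes that average 50% or more over 5 DMSO lines, with 2 points per group, 1 for each library; rows give the gene and the base of its last exon, counted from 1 at the exon's 5′ end. DMSO libraries of all 6 lines lie close together at most sites, and the STM3675 libraries lie between 5.85% and 44.1%.

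HSPA5 carried the densest cluster. On chromosome 9 of GRCh38, minus strand, 4 DRACH sites fell between bases 602 and 685 of its last exon, at chr9:125236553 (GGACT), chr9:125236545 (GAACT), chr9:125236519 (GAACT) and chr9:125236470 (AAACT). The first of these was at 13.7% and 13.9% in the STM3675 libraries and at 97.6% in both CAOV3 DMSO libraries, and its mean was 97.5% in A549 and 95.9% in COV644, the highest and lowest of the other 5 lines, though the COV644 libraries were at 94.1% and 97.7%. The site at chr9:125236519 was at 8.47% and 7.28% with STM3675, against 95.6% and 94.7% with DMSO. The STM3675 and DMSO libraries of CAOV3 were far apart at all 4 sites. Lower levels with STM3675 do not by themselves set HSPA5 apart, since 95.1% of all DRACH sites at 25% or more with DMSO were called lower (quasi-binomial F test). Toward the start of the same exon 3 further DRACH sites, at bases 464, 497 and 564, were at 25% to 50% with DMSO in CAOV3.

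P4HB held 3 strong DRACH sites and the highest site outside DRACH. At chr17:81843554 (GGACT) its level was 25.6% and 26.1% with STM3675 and 88.5% and 90.1% with DMSO in CAOV3. Only 5 bases further along the transcript, chr17:81843549 (GGACA) was at 19.5% and 23.1% with STM3675, against 69.6% and 66.7% with DMSO. Both motifs abut and are shown because the second site passed the test among lines and the first did not, a contrast that was not itself tested; the capitals mark the 2 measured adenosines in the stretch at chr17:81843547-81843556 (minus strand, GRCh38).
P4HB: ggActggAca
Across the 5 lines the first of these adenosines spanned 2.50 percentage points (adjusted p = 0.32, quasi-binomial F test) and the second 15.6 points, with 77.7% ± 0.20 in EFO21 and 62.1% ± 1.62 in A549 (adjusted p = 3e-14). The P4HB site outside DRACH, chr17:81843755 (GTACT), was at 15.1% and 15.7% with STM3675 and at 72.4% and 74.8% with DMSO in CAOV3, and averaged 78.4% over the 5 lines. Its share left with STM3675, 0.210, was below the 0.290 to 0.312 of the strong DRACH sites of P4HB. The next highest outside DRACH was CALU chr7:128769130 (AGATT), at 9.66% and 7.91% with STM3675 and at 46.7% and 48.7% with DMSO in CAOV3. CALR chr19:12944030 (GGATT) and chr19:12943903 (GGACG) averaged 26.1% and 23.7% over the 5 lines and kept shares of 0.280 and 0.426 with STM3675.

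The other strong sites were spread over the lectins, the isomerases and CALU. CALR, on chromosome 19, had chr19:12944002 (GAACT) at 20.2% and 20.8% with STM3675, against 95.9% and 96.3% with DMSO. PDIA3, its partner on chromosome 15, had chr15:43771249 (GGACT) at 43.4% and 44.1% with STM3675 and at 91.7% and 91.2% with DMSO, the highest STM3675 level among the 16 sites. PDIA4 on chromosome 7 had chr7:149003617 (TGACT) at 23.3% and 24.4% with STM3675, against 96.8% and 96.6% with DMSO. PDIA6 on chromosome 2 had chr2:10784188 (GGACA) at 24.6% and 25.0% with STM3675, against 79.1% and 77.0% with DMSO. CALU, also on chromosome 7, had chr7:128769250 (AGACT) at 14.9% and 17.2% with STM3675, against 94.2% and 95.4% with DMSO. The 2 treatments did not overlap at any of these sites, which does not set these genes apart. Of all 53040 DRACH sites at 25% or more with DMSO in CAOV3, 95.1% were called lower with STM3675 (quasi-binomial F test). The 2 CALR sites at chr19:12944002 and chr19:12944030 and 3 sites of P4HB reached 9500 or more reads in a library, close to the largest count in the table (10040). Their levels may therefore rest on a subset of the reads, and their read counts may be too low.

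How much of the DMSO level remained with STM3675 was then set beside other sites of like level. Over the 46 DRACH sites of the 10 genes at 25% or more with DMSO, the median share left was 0.293, against 0.185 over 52994 other sites, and 36 of the 46 lay above the median of their level class. This is the contrast on which the genes were chosen. With the library's median outside DRACH subtracted from each level, the median share was 0.122, against 0.0190 over the other sites. That median comes from sites listed for a high DMSO value, so it is a rough background. STM3675 levels at the 4 strong HSPA5 sites, 6.33% to 13.8%, lay around the 8.85% and 8.89% of sites outside DRACH, and the part of unconverted reads in these shares was not tested. At 25% to 50% with DMSO the median share was 0.350 for 29 sites of the 10 genes and 0.229 for the others (quartiles 0.166 and 0.316). At 50% to 75% it was 0.230 for 4 sites against 0.148, and at 75% to 90% it was 0.293 for 6 sites against 0.140 (quartiles 0.108 and 0.183). At 90% or more it was 0.169 for 7 sites against 0.197, and 3 of those 7 lay above the others' median. The 10 genes are read more deeply than most: their sites at 75% to 90% had a median of 2135 reads per library, against 81.5 elsewhere. Other sites with 1000 or more reads had lower shares than other sites in general, with medians of 0.205, 0.133, 0.121 and 0.147 from the lowest to the highest level class.

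**Figure D2:**
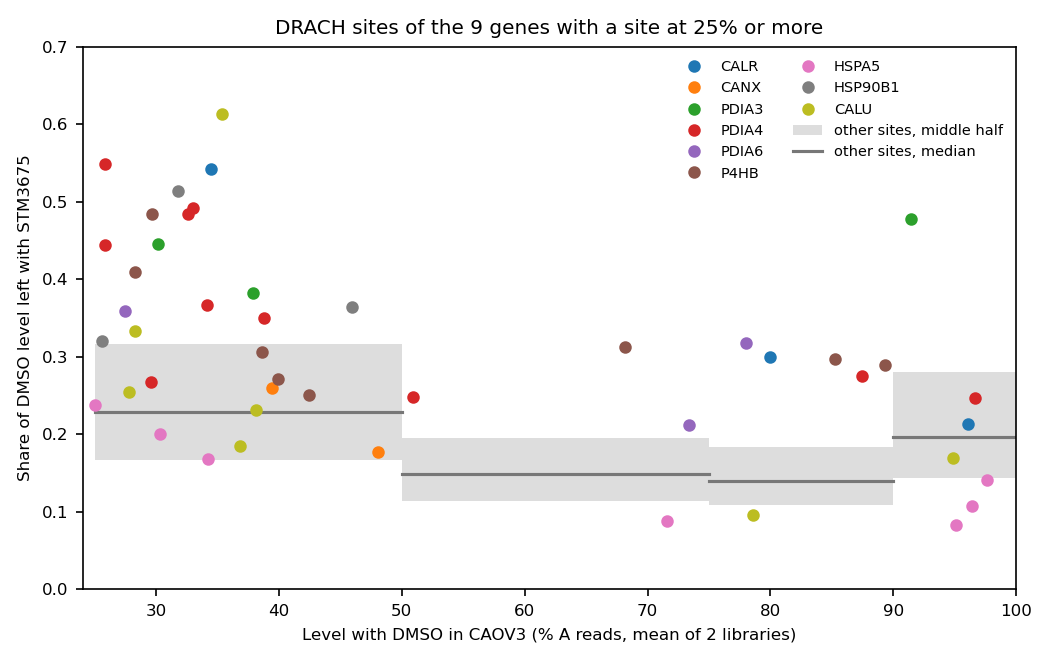
Share of the DMSO level left with STM3675 in CAOV3 (vertical axis) against the level with DMSO (horizontal axis, percent A reads) for the 46 DRACH sites of 9 genes at 25% or more; the grey line and band give the median and the quartiles of other DRACH sites in 4 level classes. Of the 46 points 36 lie above the line, and those of HSPA5 lie below it in all but 1 case.

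The name under which the 10 genes were grouped, chaperones with retained m6A, applied to them unequally. The median share left was 0.445 in PDIA3, 0.364 in HSP90B1, 0.359 in PDIA4, 0.318 in PDIA6, 0.302 in P4HB and 0.299 in CALR. It was 0.231 in CALU, 0.218 in CANX and 0.141 in HSPA5. Set among other sites of the same level class, the sites of CALR had a median percentile of 95.7 and those of PDIA3 91.5, while CALU and CANX stood at 50.9 and 44.9, near the middle. HSPA5 stood at 23.9, so its sites kept less than most sites of like level. HYOU1 had no DRACH site at 25% or more with DMSO, and no share is given for it. By this measure PDIA3, HSP90B1, PDIA4, PDIA6, P4HB and CALR lay above sites of like level, but CALR, PDIA3, PDIA6 and HSP90B1 had 3 such sites each and CANX had 2. The 3 CALR sites stood at percentiles 96.4, 56.2 and 95.7.

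The sites with the largest shares among those at 50% or more with DMSO show the spread. PDIA3 kept 0.478 at chr15:43771249 and PDIA6 kept 0.318 at chr2:10784188. P4HB kept 0.312 at chr17:81843549 and CALR kept 0.299 at chr19:12943936 (GGACT). PDIA4 kept 0.275 at chr7:149003894 (GAACC), where CAOV3 had at least 66 reads in each library but another library had only 5. CALU kept 0.169 at chr7:128769250 and HSPA5 kept 0.141 at chr9:125236553. In HSP90B1 and CANX no DRACH site reached 50% with DMSO. Their highest, chr12:103934079 (TGACT) and chr5:179728839 (GGACC), kept 0.364 and 0.177.

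**Figure D3:**
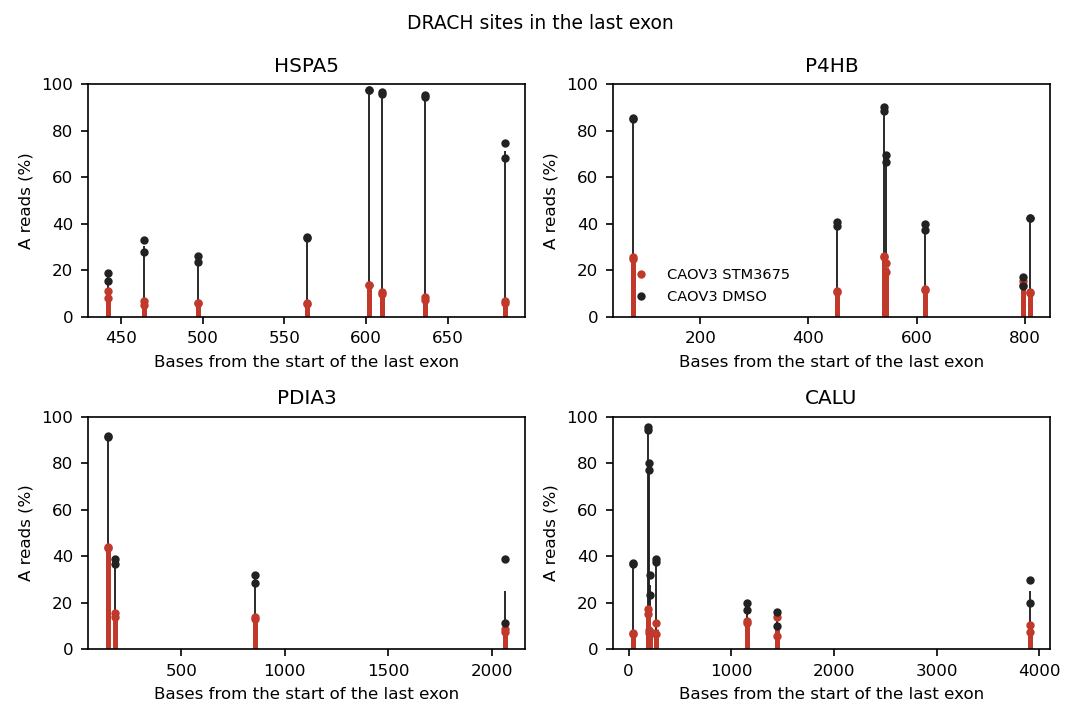
Levels at DRACH sites with 20 or more reads in the last exons of HSPA5, P4HB, PDIA3 and CALU in CAOV3, by distance from the exon's start; red points and bars are STM3675, black are DMSO, with 1 point for each library and the bar at the mean. The first PDIA3 site keeps 43.4% and 44.1% with STM3675, while the HSPA5 site at base 602 keeps 13.7% and 13.9%.

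As a description of the selecting contrast, 65 of the 193 sites of the 10 genes that had enough reads in CAOV3 (of 224 listed) were called lower with STM3675 and 1 higher, where 35.2% of all 185923 tested sites were lower (quasi-binomial F test, adjusted p under 0.05). Of the 46 DRACH sites at 25% or more with DMSO 45 were lower, as were 95.1% of all such sites. The exception was CALU chr7:128748660 (GGACC), at 25.4% and 18.0% with STM3675 and 36.8% and 33.9% with DMSO, with 89 reads in its shallowest CAOV3 library. The site called higher was P4HB chr17:81860503 (CCAAC, outside DRACH), at 24.4% and 23.0% with STM3675 and 14.3% and 13.3% with DMSO. In HYOU1, 1 of 33 tested sites was lower. Nothing about the 10 genes is read from these counts.

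Summed over all tested sites of a gene, in DRACH or not, the order of the genes was partly different. Such sums also move with the spread of reads over a gene's sites. PDIA3 was at 27.1% ± 0.94 with STM3675 and 62.7% ± 1.72 with DMSO, and CALR at 16.2% ± 0.20 with STM3675 and 62.1% ± 1.47 with DMSO. PDIA6 was at 18.2% ± 0.052 with STM3675 and 65.0% ± 0.32 with DMSO. HSPA5, the folding chaperone with the lowest share, was at 9.55% ± 0.019 with STM3675 and 58.7% ± 1.62 with DMSO. HYOU1 was at 10.8% ± 0.097 with STM3675 and 12.1% ± 0.46 with DMSO, both close to the median of sites outside DRACH in the same libraries. Over all 6727 genes at 25% or more with DMSO the median share was 0.248 (quartiles 0.202 and 0.302), and the percentile of a gene among them was 96.2 for PDIA3 (share 0.432), 95.4 for HSP90B1 (0.419), 87.8 for PDIA4 (0.352), 76.3 for P4HB (0.306), 65.9 for PDIA6 (0.280), 64.9 for CANX (0.278), 56.9 for CALR (0.262), 41.1 for CALU (0.232) and 9.05 for HSPA5 (0.163). Over the whole gene CALR was thus near the middle and below CANX, unlike by its 3 sites, whereas PDIA3 and HSP90B1 were high and HSPA5 low by both measures. These gene percentiles are not among genes of like DMSO level. HSP90B1 was at 11.5% ± 0.68 with STM3675 and 27.4% ± 0.70 with DMSO, and 3 of its 16 summed sites were in DRACH. The median outside DRACH in the STM3675 libraries was 8.89% and 8.85%. The part of unconverted reads in the share of HSP90B1 was not tested.

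Other genes of the endoplasmic reticulum and 5 relatives of the members outside it, in 8 lists with 73 genes, were tested. These lists, too, were drawn up with earlier results of the data known. Of 71 measured genes 65 were lower with STM3675 and 0 higher, beside 81.7% lower of all 11227 genes tested (quasi-binomial F test). Their median share left at 25% or more was 0.257 over 47 genes, against 0.248 over all genes. By list it was 0.305 for glycoprotein folding and quality control, 0.273 for other disulfide isomerases and oxidases, and 0.202 for co-chaperones of HSPA5 and secreted stress factors. It was 0.297 for calcium-binding and collagen chaperones, 0.255 for the unfolded protein response and 0.255 for degradation at the endoplasmic reticulum. For relatives outside this compartment it was 0.206. KDEL receptors, which retrieve escaped chaperones, had only KDELR2 at that level, with 0.211.

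Within lists the genes ranged widely. ERP29, a non-catalytic isomerase relative, was at 35.7% ± 0.73 with STM3675 and 59.8% ± 2.52 with DMSO, a share of 0.598 (adjusted p = 5.6e-11), whereas TXNDC5, another isomerase, was at 11.1% ± 0.42 with STM3675 and 61.8% ± 1.76 with DMSO, a share of 0.180. LMAN2, a cargo lectin, kept 0.526 and MLEC, which binds early glycans, kept 0.271. SDF2L1, a partner of HSPA5 co-chaperones, was at 11.8% ± 0.19 with STM3675 and 75.6% ± 0.15 with DMSO and kept 0.156. SIL1, an exchange factor of HSPA5, kept 0.462. SDF4 and RCN1, calcium-binding relatives of CALU, kept 0.453 and 0.192. The stress transcription factor ATF4 kept 0.375 and the protease MBTPS1, which activates ATF6, kept 0.206. EDEM2, of the degradation pathway, kept 0.523. HSP90AA1 and HSPA9, relatives of HSP90B1 and HSPA5 outside this compartment, kept 0.225 and 0.199. All these genes were lower with STM3675 in the adjusted test. Summed in the same way PDIA3 kept 0.432, and of the 47 listed genes at 25% or more with DMSO 6 kept more: ERP29, LMAN2, EDEM2, OS9 (0.503, named after its values were seen), SIL1 and SDF4.

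With DMSO, the strongest sites of the 10 genes differed little between cell lines. Of their 224 sites 115 had 20 or more reads in all 10 libraries of the 5 lines, and 56 of these differed among lines, or 48.7%, where 32.1% of all 76271 sites did (quasi-binomial F test, adjusted p under 0.05). At DRACH sites of 50% or more 9 of 15 differed, beside 29.8% of all such sites; at 25% to 50% 9 of 19, beside 31.5%; under 25% 13 of 24, beside 24.3%; and outside DRACH 25 of 57, beside 36.6%. Sites of the 10 genes are deeper, which makes small differences callable: at 50% or more their median was 1355 reads, against 113 elsewhere. Of sites of other genes with 1000 or more reads 816 of 924 differed, and 251 of 303 of those in DRACH at 50% or more. The higher counts of calls in the 10 genes are thus not set against sites of like depth. At their DRACH sites of 50% or more the differences themselves were small, with a median range of line means of 2.81 percentage points, against 11.3 points over all such sites. With limma on unweighted transformed levels 0 of the 115 sites passed, as 67 of all 76271 did. At an unadjusted p under 0.05 in that test it was 27 of 115, beside 19360 of all 76271 (25.4%). The calls thus rest on giving deep sites more weight.

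Part of that evenness went with depth and level. Among DRACH sites with 1000 or more reads, those of 90% or more spanned a median of 1.91 points in the 6 sites of the 10 genes and 2.48 points in 73 others (quartiles 1.23 and 4.41). At 75% to 90% the 3 sites of the 10 genes spanned 2.81 to 7.12 points, against a median of 7.27 in 64 others. At 50% to 75% their 3 sites spanned 5.85 to 15.6 points, against a median of 11.1 in 166 others. These ranges overlap those of other deep sites, and the difference was not tested.

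CALR and HSPA5 show how small the called differences were. CALR chr19:12944002 was at 95.6% ± 0.064 in A549 and 94.3% ± 0.33 in EFO21 (adjusted p = 0.00057, quasi-binomial F test), a range of 1.32 points. HSPA5 chr9:125236553 had 97.5% ± 0.094 in A549 and 95.9% ± 2.52 in COV644 (adjusted p = 0.0042), a range of 1.67 points that rests on 1 COV644 library. CALU chr7:128769250, with a range of 2.16 points, PDIA4 chr7:149003617 with 1.92 points and PDIA3 chr15:43771249 with 2.81 points did not pass the test (adjusted p = 0.43, 0.29 and 0.47). Weaker DRACH sites varied more. P4HB chr17:81845960 (GGACT, exon 8) was at 31.2% in EFO21 and 14.4% in OE21 (adjusted p = 5.6e-07).

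The largest differences among lines lay at low sites and outside DRACH. A site averaging under 25% was listed only because some DMSO library reached that level. Some range among lines is thus fixed there by the listing, which the test does not allow for. CANX chr5:179728617 (CCAAG), for instance, reached 25% with DMSO in 1 SKOV3 library only, at 34.3%, with the other at 13.0%. PDIA4 chr7:149003694 (GGATT) was at 45.4% ± 3.15 in SKOV3, 44.6% ± 5.94 in A549 and 42.0% ± 2.79 in EFO21, against 15.2% ± 0.21 in COV644 and 11.7% ± 1.24 in OE21 (adjusted p = 6.6e-130, quasi-binomial F test). In CAOV3 it was at 27.0% and 23.2% with STM3675 and at 52.5% and 53.4% with DMSO. HYOU1 chr11:119052171 (GGATG) was at 29.6% ± 17.1 in SKOV3 and 4.46% ± 0.42 in COV644 (adjusted p = 0.00017), with SKOV3 libraries at 17.5% and 41.7%. In the genes other than PDIA4 and P4HB, the called site with the largest range averaged between 7.94% (PDIA6) and 16.8% (HYOU1) and spanned between 12.9 points (CALR) and 25.1 points (HYOU1). COV644 and OE21 were the 2 lowest lines at 40 of the 57 tested sites of the 10 genes outside DRACH (64.2% of other such sites) and at 14 of 24 DRACH sites under 25% (34.1% of others). At DRACH sites of 25% to 50% they were lowest at 4 of 19 (10.9% of others), and at 50% or more at 1 of 15 (7.09% of others). The same 2 lines had the lowest medians outside DRACH, 3.33% to 4.14%. The part of unconverted reads in these differences was not tested.

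At the level of whole genes 7 of the 10 differed among the 5 lines, where 53.0% of all 8606 genes did (quasi-binomial F test). These values pool reads, so they move with the spread of reads over a gene's sites as well as with site levels. How much each contributed was not tested. With the unweighted mean of sites and limma 6 of the 10 differed, beside 3457 of all 8606 genes. P4HB was at 55.8% ± 1.86 in EFO21 and 48.6% ± 0.28 in A549 (adjusted p = 1.6e-05). PDIA4 was at 45.9% ± 3.09 in EFO21 and 35.1% ± 0.95 in OE21 (adjusted p = 0.00014). CALU was at 53.6% ± 1.71 in EFO21 and 45.9% ± 0.27 in A549 (adjusted p = 0.0035). HSPA5 was at 63.5% ± 1.77 in EFO21 and 57.7% ± 0.66 in A549 (adjusted p = 0.0019). Yet at its site chr9:125236553 both lines were at 97.5%. At its first-exon site chr9:125241157, at 22.4% in EFO21 and 23.0% in A549, the EFO21 libraries had 1112 and 642 reads and the A549 libraries 2807 and 2704. EFO21 was the highest of the 5 lines in all 4 genes, and A549 the lowest in 3 of them. PDIA6, highest in OE21 at 65.8% ± 1.34 and lowest in SKOV3 at 62.0% ± 2.16, and CANX, highest in SKOV3 at 33.1% ± 2.39 and lowest in OE21 at 27.8% ± 0.35, differed less (adjusted p = 0.0097 and 0.018).

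HYOU1 differed most in proportion, with 18.5% ± 8.22 in SKOV3, 14.3% ± 0.82 in A549 and 11.9% ± 1.07 in EFO21, against 4.93% ± 0.63 in OE21 and 4.43% ± 1.10 in COV644 (adjusted p = 0.00017). Its SKOV3 libraries were at 12.7% and 24.3%, and COV644 and OE21, its lowest lines, also had the lowest medians outside DRACH. The sites of HYOU1, too, were each listed for a high value in some DMSO library. CALR (58.1% to 60.5%), PDIA3 (59.4% to 64.1%) and HSP90B1 (22.3% to 25.0%) did not pass the test (adjusted p = 0.62, 0.64 and 0.49). In CALR the SKOV3 libraries were at 56.7% and 62.1%, and in PDIA3 the COV644 libraries were at 65.7% and 56.2%. At CALR chr19:12944030 the SKOV3 libraries were alike, at 25.7% and 25.8%, but had 9958 and 6481 reads.

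**Figure D4:**
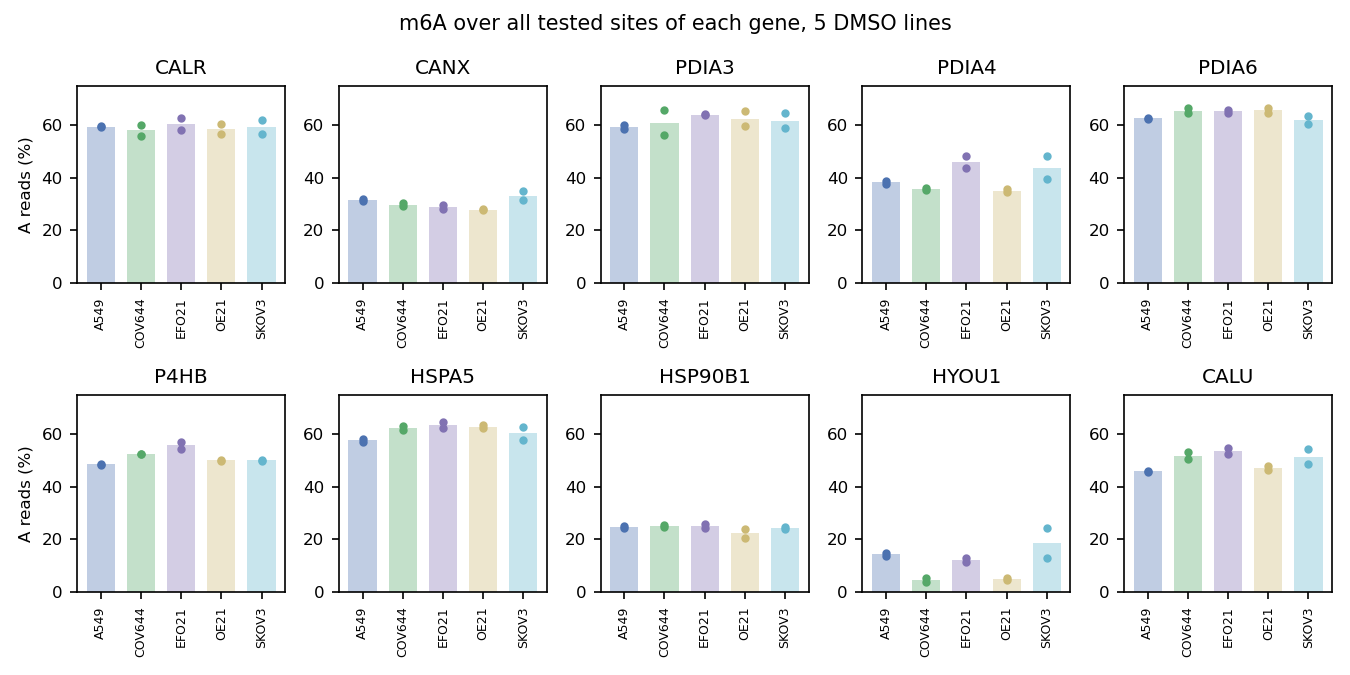
m6A over all tested sites of each gene (percent A reads) in the 5 DMSO lines that were compared, with bars at the mean of 2 libraries and 1 point for each library. CALR, PDIA3 and HSP90B1 overlap among lines, and HYOU1 is lowest in COV644 and OE21.

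Read coverage, the A and G reads over all listed sites of a gene scaled to the total of the library (RPM), stands in for the amount of its RNA. Coverage of HSPA5 with STM3675 was 1288 and 1332 RPM, against 602 and 626 RPM with DMSO in CAOV3, a ratio of 2.13 that lay at percentile 97.9 of 11391 genes. Its STM3675 libraries were also above all DMSO libraries of the other 5 lines, the highest of which had 795 RPM. The other 9 genes had ratios from 0.757 (PDIA3) to 1.16 (CANX), where the median over all genes was 0.905 (quartiles 0.739 and 1.14). CALR and P4HB hold sites close to the largest count in the table, so their coverage and ratios may be held down. At CALR chr19:12944002 there were 9083 and 9972 reads with DMSO and 10000 and 9992 with STM3675, though the STM3675 libraries had more reads in total. None of the 72 other endoplasmic reticulum genes and relatives measured reached the ratio of HSPA5, the highest being 1.79 among calcium-binding and collagen chaperones. In bulk RNA, more cells that express a gene and more of its RNA in each cell cannot be told apart.

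Among the 5 DMSO lines coverage of all 10 genes differed, as it did for 98.0% of 13577 genes (edgeR quasi-likelihood test), so this count says little of the 10 genes. HSPA5 was the most even, with 778 ± 23.7 RPM in A549 and 553 ± 23.4 RPM in COV644, a ratio of 1.41 (adjusted p = 0.013, edgeR). PDIA4 was the least even, with 685 ± 29.9 RPM in EFO21 and 133 ± 10.3 RPM in SKOV3, a ratio of 5.14 (adjusted p = 1.7e-09). HYOU1 had 275 ± 23.9 RPM in EFO21 and 59.8 ± 7.40 RPM in A549, a ratio of 4.60. CALU, HSP90B1 and CALR were lowest in OE21, at 104 ± 5.63, 67.3 ± 2.70 and 554 ± 136 RPM, with ratios of the highest line to OE21 of 3.48, 3.32 and 2.56. P4HB and PDIA3 were instead highest in OE21, with 1634 ± 337 and 144 ± 18.3 RPM.

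**Figure D5:**
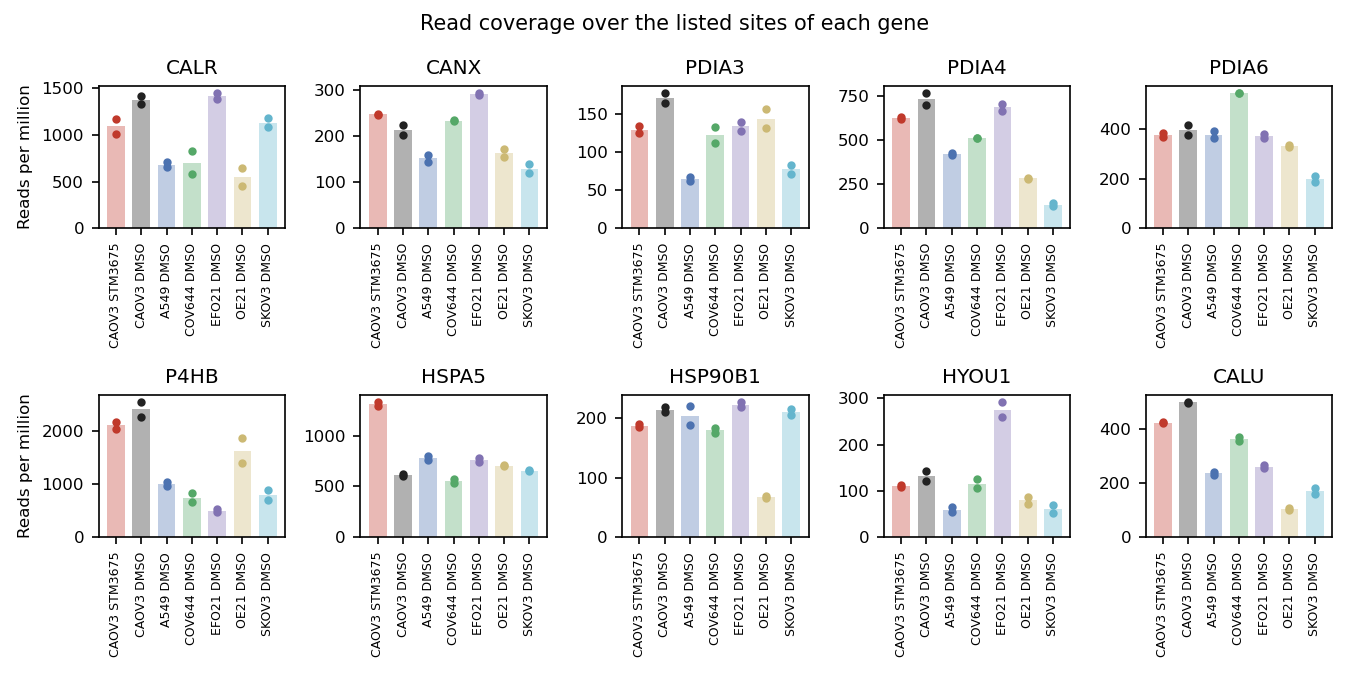
Read coverage (RPM) over the listed sites of each gene, with bars at the mean of 2 libraries and 1 point for each library; CAOV3 with STM3675 stands at the left of each panel, then CAOV3 and the other 5 lines with DMSO. HSPA5 with STM3675, at 1288 and 1332 RPM, exceeds all DMSO libraries of the panel; scales differ between panels.

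Promoters were looked at because coverage of HSPA5, and of no other gene of the 10, stood apart with STM3675. RefSeq promoters (GRCh38.p14, 250 bases before to 50 bases after the start) were found for 9 genes, PDIA3 being the one with none. They were searched on both strands for the ER stress response element, CCAAT, 9 bases of any kind and CCACG. It was present in 5 of the 9, HSPA5, HSP90B1, CALR, CANX and PDIA6. Among all gene symbols with a promoter 25 of 27305 held it (0.0916%), or 27 of 35116 promoters (0.0769%), both counts including these 5 genes. The difference was not tested. Capitals mark the 5-base blocks at its ends; where they read CGTGG and ATTGG the element is on the other strand. The stretches lie at chr9:125241386-125241414 (minus), chr12:103930211-103930239 (plus), chr12:103930316-103930344 (plus), chr19:12938379-12938407 (plus), chr5:179698773-179698801 (plus) and chr2:10812848-10812876 (minus), in the order printed.
HSPA5: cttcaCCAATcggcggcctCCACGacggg
HSP90B1: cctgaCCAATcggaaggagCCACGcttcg
HSP90B1: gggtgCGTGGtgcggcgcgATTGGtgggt
CALR: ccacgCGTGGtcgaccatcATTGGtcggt
CANX: cccggCCAATcttcacactCCACGaagaa
PDIA6: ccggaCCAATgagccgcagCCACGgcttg
HSPA5, HSP90B1, CALR, CANX and PDIA6 thus share this element, while their coverage ratios with STM3675 were 2.13, 0.874, 0.796, 1.16 and 0.941. The ratio of CALR may be held down by its sites close to the largest count in the table. The promoters of P4HB, PDIA4, CALU and HYOU1 do not hold these letters in the window searched. Of 65 other endoplasmic reticulum genes and relatives with a promoter, 3 held the element: CRELD2, ERO1B and XBP1.

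Summed over 58 DRACH sites, the 10 genes were at 14.2% ± 0.27 in CAOV3 with STM3675, against 57.1% ± 1.58 in CAOV3 with DMSO, and at 55.4% ± 0.61 in A549, 56.4% ± 0.43 in OE21, 58.7% ± 0.37 in COV644, 60.1% ± 2.39 in SKOV3 and 62.3% ± 2.23 in EFO21. Of neighbours in this order, the libraries of OE21 and CAOV3 with DMSO, of COV644 and SKOV3, and of SKOV3 and EFO21 overlapped. Reads were pooled over genes whose coverage differed among lines. P4HB, for instance, had 501 RPM in EFO21 and 1634 RPM in OE21, and CALR 1417 and 554 RPM. The weight of each gene thus changed between lines, and its part in this order was not tested. Out of 2911 genes with at least 5 tested DRACH sites, those whose levels over the 7 groups were nearest to this profile by root mean square difference were NUP62 (1.68 points), HPS3 (2.00 points), HMGXB3 (2.03 points), ADPRS (2.18 points) and CTBP2 (2.19 points). With STM3675 these 5 genes stood at 11.1% to 12.8%, below the 14.2% of the chaperones. This is a description only, since the chaperones were selected on what remained in that group.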

How the data were processed

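Per the labels' protocols, fragments of polyadenylated RNA were deaminated with glyoxal and nitrite and made into small RNA libraries. The submitters' processing notes name cutadapt, STAR and GRCh38; for versions, the site caller and any merging of duplicate reads, nothing is given in the sources used here. In the table the authors deposited, counts of A or G reads per adenosine and library stand beside the fraction of them that are A. Fraction times count was whole within 1e-06 throughout, which gave back the A and G counts. Columns starting with D were taken as DMSO, those with T as STM3675. Motifs, genes and exons are those of the table; coding and untranslated parts were not used here.

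Sites with 20 or more reads in every library compared were fitted with a logistic model with quasi-binomial dispersion, moderated with squeezeVar of limma 3.58.1 in R 4.3.3 with a floor of 1, and p-values of the F tests were adjusted over all sites or genes (Benjamini-Hochberg, threshold 0.05). Moderation gave all sites 1 common dispersion (1.68 over 5 lines, 1.67 in CAOV3); at 1000 or more reads it was 1.88 and 2.83, so deep sites are called too readily. Gene values sum A and G reads over tested sites. Coverage was tested with edgeR 4.0.16 (TMM, quasi-likelihood), and DESeq2 1.42.0 was an alternative. Scripts used Python 3.11.15 and numpy 2.4.6, and figures matplotlib 3.10.9. The fits were tested on simulated data.

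Members and lists were chosen with earlier results of these data known. Genes and sites were named by rule: all 10 members; for each, the highest DRACH site in 5 lines, the DRACH site at 50% or more with the largest share left and the site with the largest range among lines; the highest sites outside DRACH; and the extremes of each list, 1 of which is not reported here. The rest of the HSPA5 cluster and the exceptions in CAOV3 were chosen after their values were seen. Labels do not say that replicates were separate cultures, so p-values measure the spread between these libraries, which may be technical. Replicate pairs differed by more than counting noise (chi-square of read counts over its degrees of freedom, 1.67 to 5.75), and none were merged.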

Additional observations from a re-analysis of the deposited data

How the results depend on the processing

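Among 5 lines, 56 of 115 sites of the 10 genes differed, beside 24446 of all 76271. When only DRACH sites were fitted 34 of 58 did, beside 13695 of all 41433. Unweighted limma on the arcsine square root of the fraction gives shallow and deep libraries equal weight. It called 0 of 115 and 67 of all 76271 sites (27 of 115 and 19360 of 76271 at an unadjusted p under 0.05). Weighted by reads, an alternative chosen after seeing the data like the next, limma called 54, beside 19752 of all 76271. A dispersion trended on depth gave 56, beside 23481. Leaving out 1 library leaves 1 in its group, so counts of calls are not given for it. Unweighted limma called 42 of 193 sites lower with STM3675 in place of 65, beside 55376 in place of 65503 of all 185923. The median share left of 0.293 became 0.122 (0.0190 in other sites) with the non-DRACH median subtracted, 0.247 at DMSO levels of 50% or more, 0.243 from summed reads, and 0.283 to 0.298 without 1 library. Of 46 sites 36 lay above their class median, 33 to 37 without 1 library, 11 of 17 at 50% or more, 26 of 36 when classes came from the other 5 lines and 37 of 46 among sites of like depth. A minimum of 10 or 50 reads moved no count by over 1.5 times, but changed the number of sites tested. At 10 reads 60 of 154 sites differed among lines (34305 of all 160945), and at 50 reads 42 of 59 (10467 of all 20239).

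With the replicate block 56 sites (21917 of all 76271) and 7 genes (4438 of all 8606) differed in m6A among lines. In coverage 10 genes did (13238 of all 13577). Lower with STM3675 were 56 of 193 sites (42743 of all 185923) and 65 of 71 other genes (9224 of all 11227). Samples with the same number did not deviate together (correlations from -0.0569 to 0.0724 over 11 pairs of groups). Calls rest on 2 libraries per group. Depth of 1000 reads and more makes differences of 1 to 2 points callable, whereas sites near the minimum of 20 reads can show only large ones.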
